A study of Mus musculus with 14 samples.

Results

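This section describes the Wnt genes of 14 mouse lung tumours: the secreted Wnt ligands, their Frizzled (Fzd) receptors, the co-receptors Lrp5 and Lrp6, the receptors Lgr4 to Lgr6, the secreted modulators of the Sfrp and Dkk families with Frzb, and the feedback gene Axin2. Protein-coding genes were taken by symbol, which gave 44 of the 46517 genes in the expression table. The tumours are models of small cell lung cancer, a neuroendocrine cancer, and expression was measured by RNA-seq of stranded, poly(A)-selected libraries. RPM tumours (n = 11) came from mice with floxed Rb1, floxed Trp53 and a Cre-activated (LSL) allele of Myc T58A followed by an IRES and luciferase. By the source names 9 of them carried the Myc allele as LSL/LSL and 2, replicates 2 and 4, as LSL/+. RPR2 tumours (n = 3) came from mice with floxed Rb1, floxed Trp53 and floxed p130, the product of Rbl2. Loss of Rb1 and Trp53 was therefore planned in both groups, and in both it was started by an adenovirus that carries Cre under the promoter of Cgrp, a neuroendocrine gene. The tumours were untreated and were cut from the lung by eye, so each library can hold other lung cells. The mice's age was not analysed here, and the labels do not say which tumours shared an animal (the titles of RPM replicates 6 and 7, and those of 10 and 11, share a number), so p-values measure the spread between these samples.

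Wnt proteins are lipid-modified by Porcn, carried to the cell surface by Wls and bound by a Frizzled receptor. With Lrp5 or Lrp6 beside it, the receptor stops the breakdown of beta-catenin, which then acts with Tcf and Lef factors on target genes such as Axin2. Other Wnts, Wnt5a and Wnt11 among them, are known mainly for signals that do not use beta-catenin. R-spondins bound to Lgr receptors keep Frizzleds on the cell surface, Sfrp proteins and Frzb bind Wnts, and Dkk1, Dkk2 and Dkk4 block Lrp5 and Lrp6. In the lung the pathway is known for its part in branching, in the mesenchyme and in the upkeep of alveolar type 2 cells.

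Values are FPKM, in which reads are scaled by transcript length and by the library's mapped reads, and are compared between genes on that per-length scale. Depth was estimated from the lowest values of short genes, taken as steps of single reads. The best fit gave about 16.95 to 20 M mapped reads in RPM and 20.45 to 22.85 M in RPR2. Read length, fitted beside depth, came out at 36 to 65 bases across libraries, so these depths are approximate. At that depth 3 reads on a transcript of 2 kb make 0.0750 to 0.0885 FPKM in RPM libraries, and 0.0656 to 0.0733 FPKM in RPR2 libraries. Such floors cover only the error of counting. Myc was at 48.4 to 383.9 FPKM in RPM, against 4.68, 6.83 and 13.6 FPKM in RPR2, with no overlap. Rbl2 was at 3.43 to 9.90 FPKM in RPM, against 3.58, 7.55 and 3.34 FPKM in RPR2, and Trp53 at 7.93 to 78.0 FPKM in RPM, against 10.3, 12.4 and 5.69 FPKM in RPR2. Rb1, floxed in both groups, was at 5.19 to 22.6 FPKM in RPM, against 39.4, 49.8 and 3.58 FPKM in RPR2, so RPR2 replicates 1 and 2 lay above every RPM library (limma, BH-adjusted p = 0.218 with all libraries). These are whole-gene values, which do not separate deleted from kept exons, so the deletions could not be checked. RPR2 replicate 3 went against the label of a neuroendocrine tumour: its neuroendocrine markers summed to 12.4 FPKM, against 2320 and 3440 in RPR2 replicates 1 and 2 and 227 to 1270 in RPM. Its 6 alveolar type 2 markers summed to 50100 FPKM, where RPR2 replicates 1 and 2 had 1810 and 2310. Results that this library decides or moves strongly are therefore given with and without it. Within RPM, replicate 5 had the lowest neuroendocrine sum, 227, where the next was 564. The libraries of the models also carry different code prefixes in their descriptions, so a difference in handling and the genotype cannot be told apart. Within RPM, replicate 9 alone had a prefix unlike the others.

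Of the 44 genes, 26 reached 1 FPKM in 3 or more libraries, and these were tested. They were the ligands Wnt3, Wnt4, Wnt5a, Wnt5b, Wnt7b and Wnt11, every Frizzled gene except Fzd10, both Lrp genes, Lgr4, Lgr5, Sfrp1, Sfrp2, Sfrp4, Sfrp5, Dkk2, Dkk3 and Axin2. Lrp5, Lrp6, Fzd6 and Dkk3 were at 1 FPKM or more in all 14 libraries, while the other 22 were so in 3 to 13. Of the 18 genes below that filter, 7 reached 1 FPKM in 1 or 2 libraries: Wnt7a, Wnt9a, Wnt10b, Wnt16, Fzd10, Lgr6 and Dkk1. The other 11 never did. Wnt2, Wnt2b, Wnt3a, Wnt6, Wnt9b, Wnt10a and Frzb stayed at 0.73 FPKM or below, Wnt1 and Dkk4 at 0.05 or below, Wnt8b at 0.02 or below, and Wnt8a was listed at 0 throughout. Thus 9 of 19 ligands never passed 0.5 FPKM in any tumour, whereas 9 of 10 Frizzled genes and both Lrp genes reached the filter. Among these receptors Fzd5 reached 1 FPKM in only 4 libraries, and Fzd9 in no RPR2 library. The same was true of Lgr5 in RPR2.

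**Figure D1:**
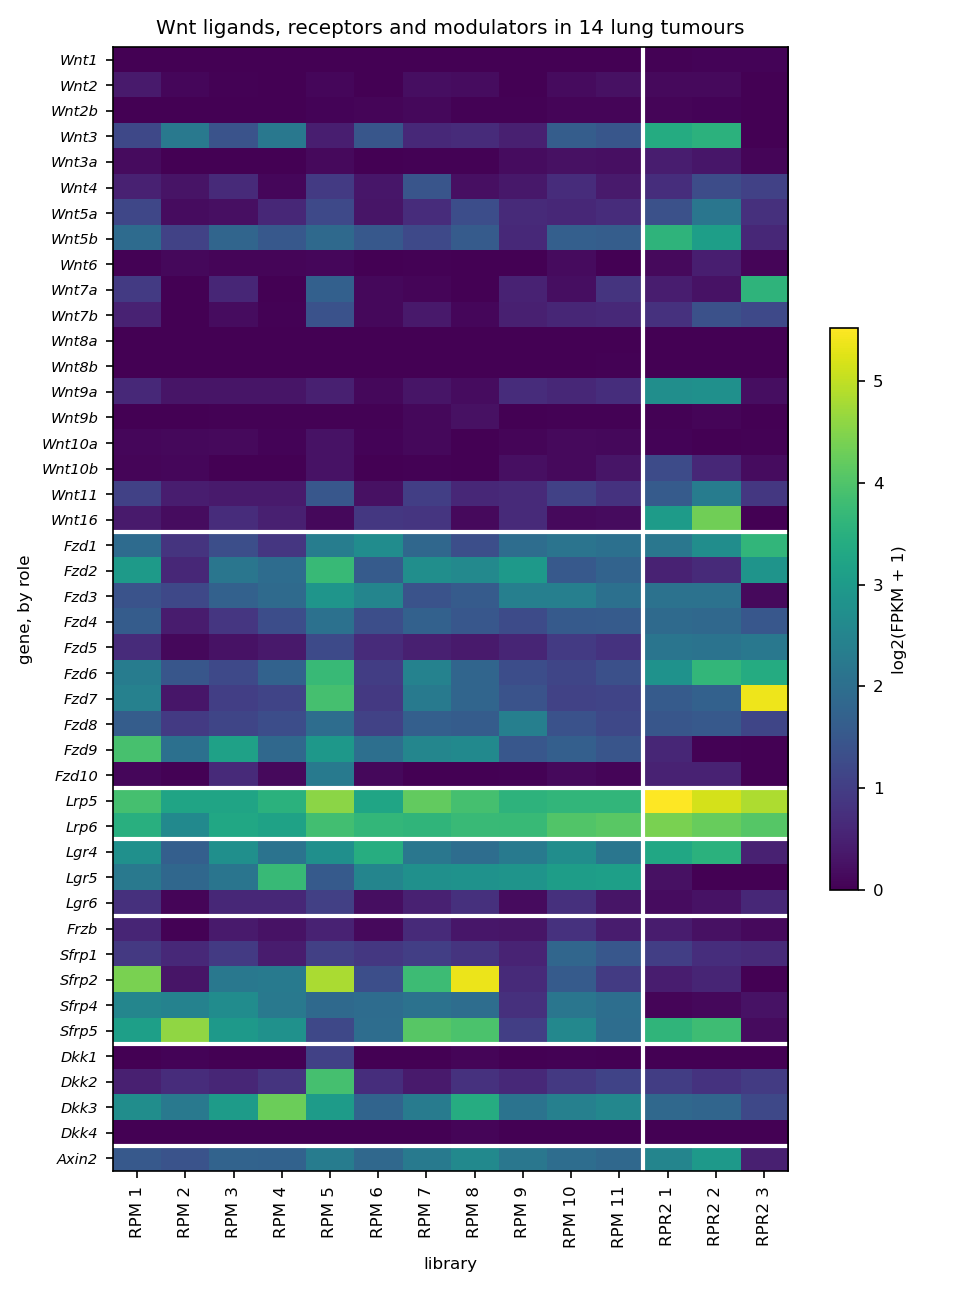
Expression of the 44 genes (rows, grouped by role) in each library (columns, RPM left of the white line and RPR2 right of it), as log2(FPKM + 1). Most ligand rows are dark in RPM, Lgr5, Fzd9 and Sfrp4 are lighter across RPM than in RPR2, and RPR2 replicate 3 differs from RPR2 replicates 1 and 2 in Wnt3, Wnt7a, Wnt16, Fzd7 and Lgr4.

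RPM was compared with RPR2 to ask how tumours with the Myc allele differ from those of the Rbl2 model. In bulk tissue, fewer cells of a type and less RNA per cell cannot be told apart. On log2(FPKM + 1), 4 of the 26 genes were higher in RPM (Lgr5, Fzd9, Sfrp4 and Dkk3) and 7 were lower (Fzd5, Fzd6, Fzd1, Lrp5, Lrp6, Wnt11 and Wnt7b; limma, Benjamini-Hochberg (BH) adjusted p under 0.05 over 15719 genes). Those are 15.4% and 26.9% of the 26, where 18.4% of all tested genes were higher and 22.8% lower, so the number of calls was near the background. In both directions together 41.2% of all tested genes were called. The median log2 difference was -0.21 over the 26 and -0.06 over all tested genes. Every RPM library lay above every RPR2 library for Lgr5, Fzd9 and Sfrp4 (11.5% of the 26, against 11.1% of all tested genes) and below for Fzd5 and Lrp5 (7.69% against 13.6%). Those 5 genes passed the test in all 24 alternative fits, and the other 6 did not. Wnt7b, Wnt11 and Lrp6 lost the call with a pseudocount of 0.1 in place of 1, Wnt7b and Wnt11 with LSL/LSL tumours alone in RPM, Fzd1, Lrp6 and Dkk3 with no filter on low values, and Fzd1, Fzd6 and Lrp6 after quantile normalization. Without RPR2 replicate 3, 4 were higher (Fzd2, Fzd9, Lgr5 and Sfrp4, against 16.2% of all genes) and 9 lower (Fzd5, Fzd6, Lrp5, Wnt3, Wnt5a, Wnt5b, Wnt11, Lgr4 and Axin2, against 28.5%), and 44.8% of all tested genes were called in either direction. The medians were then -0.59 over the 26 and -0.22 over all tested genes. Without RPR2 replicate 2, 3 were higher and only Fzd5 and Lrp5 lower, where 14.7% of all tested genes were higher and 16.8% lower, or 31.4% in either direction.

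**Figure D2:**
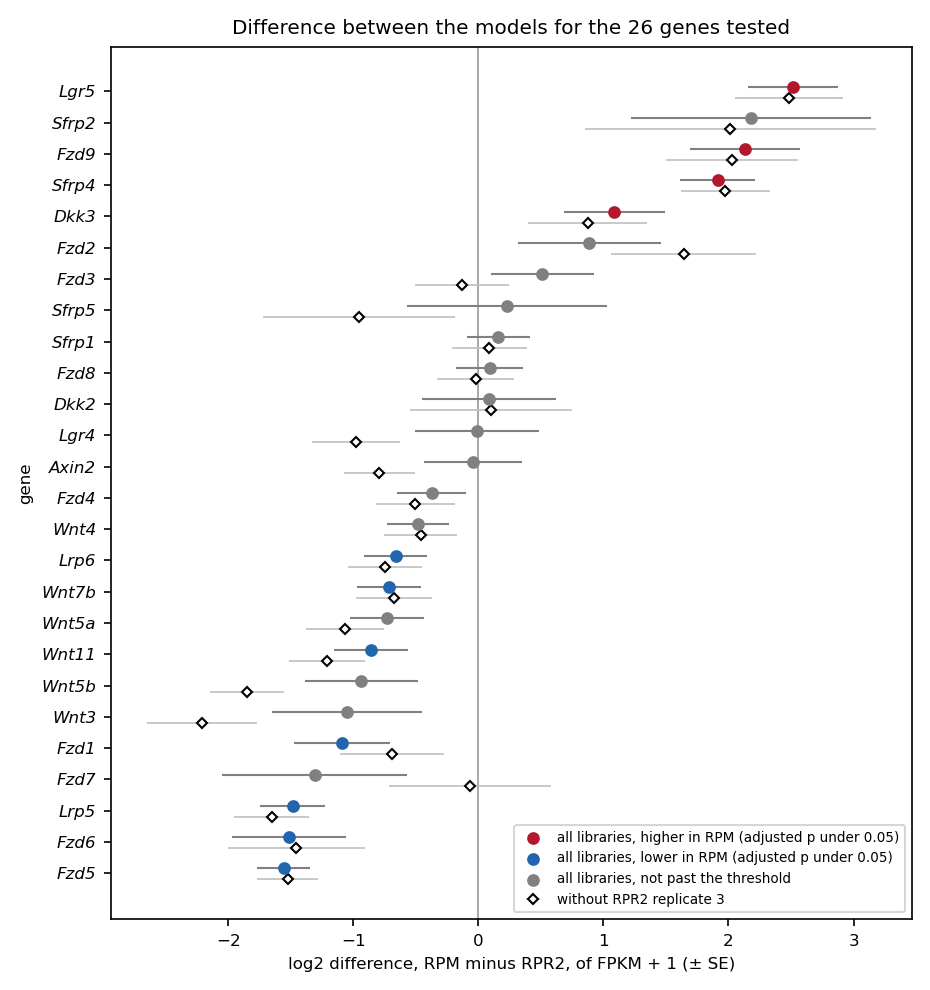
Log2 difference of FPKM + 1, RPM minus RPR2, with its SE (x axis) for the 26 genes tested (y axis), with all 14 libraries (circles) and without RPR2 replicate 3 (open diamonds). Lgr5, Fzd9 and Sfrp4 lie at the right in both fits, while Wnt3, Wnt5b, Lgr4 and Axin2 move left when RPR2 replicate 3 is left out.

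Of the 6 ligands tested, Wnt7b and Wnt11 were lower in RPM and none was higher, where 22.8% of all tested genes were lower and 18.4% higher. The 19 ligands summed to 4.84 to 12.25 FPKM in RPM (median 7.17), against 40.9, 55.2 and 15.9 FPKM in RPR2 replicates 1, 2 and 3. All 3 RPR2 sums lay above all RPM sums, but different ligands made them up, and the sum was not tested. Wnt16 (19.1 FPKM) led in RPR2 replicate 2, Wnt5b (11.1) in replicate 1 and Wnt7a (10.98) in replicate 3. In RPM the leading ligand was Wnt5b in 7 libraries, Wnt3 in 2, Wnt4 in 1 and Wnt9a in 1, and it never passed 3.71 FPKM.

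Wnt11, known for planar polarity and cell movement, was at 0.19 to 1.83 FPKM in RPM (median 0.58), against 2.01, 4.0 and 0.85 FPKM in RPR2. RPR2 replicates 1 and 2 lay above all RPM libraries, and replicate 3 lay within their range. Wnt11 fell in RPM by 0.85 ± 0.30 on the log2 scale (SE, n = 11 and 3; limma, BH-adjusted p = 0.0310). The call was lost without RPR2 replicate 1 or 2 (limma, BH-adjusted p = 0.0795 and 0.245), and without replicate 3 the difference was -1.21.

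Wnt7b, a ligand of the airway epithelium in lung development, was at 0 to 1.62 FPKM in RPM (median 0.30), against 0.73, 1.58 and 1.31 FPKM in RPR2. RPM replicate 5 was the highest library, and the next RPM value was 0.56. Wnt7b fell by 0.72 ± 0.26 on the log2 scale (SE; limma, BH-adjusted p = 0.0361). The call was lost without RPM replicate 3, 4, 6 or 8 (limma, BH-adjusted p of 0.0508 to 0.0527) and without RPR2 replicate 2 or 3 (0.155 and 0.0853). Its paralog Wnt7a was at 0 to 2.25 FPKM in RPM, again highest in replicate 5, against 0.36, 0.21 and 10.98 FPKM in RPR2. Wnt7a was below the filter, and in the fits that held it, with no filter and with TPM scaling, it was not called (limma, BH-adjusted p = 0.23 and 0.151).

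Wnt3, Wnt5b, Wnt9a and Wnt16 shared a pattern of high values in RPR2 replicates 1 and 2 and low values in replicate 3. Wnt3, a ligand of the beta-catenin branch, was at 0.38 to 3.71 FPKM in RPM (median 1.66), against 9.59, 10.7 and 0 FPKM in RPR2. Wnt5b was at 0.56 to 2.80 FPKM in RPM (median 2.02), against 11.1, 7.56 and 0.52 FPKM in RPR2. RPR2 replicate 3 was thus the lowest of all 14 libraries for both genes. Neither passed with all libraries (limma, BH-adjusted p = 0.177 for Wnt3 and 0.112 for Wnt5b). Without RPR2 replicate 3 the differences were -2.21 ± 0.44 for Wnt3 and -1.85 ± 0.30 for Wnt5b (SE; limma, BH-adjusted p = 0.00105 and 0.000205).

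Wnt9a was at 0.09 to 0.64 FPKM in RPM (median 0.25), against 5.59, 5.8 and 0.16 FPKM in RPR2. Wnt16, known for its part in bone, was at 0.09 to 0.85 FPKM in RPM (median 0.31), against 7.2, 19.1 and 0 FPKM in RPR2. Both reached 1 FPKM in 2 libraries, below the filter. In the fits that held them, both were lower in RPM: Wnt9a by a difference of -1.47 ± 0.39 with no filter and -1.87 ± 0.50 with TPM scaling (SE; limma, BH-adjusted p = 0.0126 and 0.00863), and Wnt16 by -2.02 ± 0.58 and -2.44 ± 0.68 (0.0203 and 0.0119). Among the tested genes of all roles, RPR2 replicates 1 and 2 lay above every RPM library, with replicate 3 not above them, for Wnt3, Wnt5a, Wnt5b, Wnt11 and Lrp6, which is 5 of 26 (19.2%, against 15.9% of all tested genes).

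Wnt5a, the usual ligand of the beta-catenin-independent branch, was at 0.13 to 1.48 FPKM in RPM (median 0.57), against 1.58, 3.49 and 0.69 FPKM in RPR2. It was not called with all libraries (limma, BH-adjusted p = 0.0606), but it was without RPM replicate 5 (0.0459), RPM replicate 8 (0.0436) or RPR2 replicate 3 (0.0123), where the difference was -1.07. Wnt4 was at 0.07 to 1.75 FPKM in RPM, against 0.66, 1.42 and 1.09 FPKM in RPR2 (limma, BH-adjusted p = 0.136, and 0.0344 without RPM replicate 7, its highest RPM library). Of the ligands below the filter, Wnt10b was at 0 to 0.24 FPKM in RPM, against 1.39, 0.52 and 0.14 FPKM in RPR2, and with no filter it was lower in RPM (difference -0.58 ± 0.15, SE; limma, BH-adjusted p = 0.011). Wnt1 passed in that fit too (-0.05 ± 0.01, SE; limma, BH-adjusted p = 0.00374), on levels of 0.04 FPKM or below. Those levels lie under the floors given for 3 reads on a transcript of 2 kb.

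**Figure D3:**
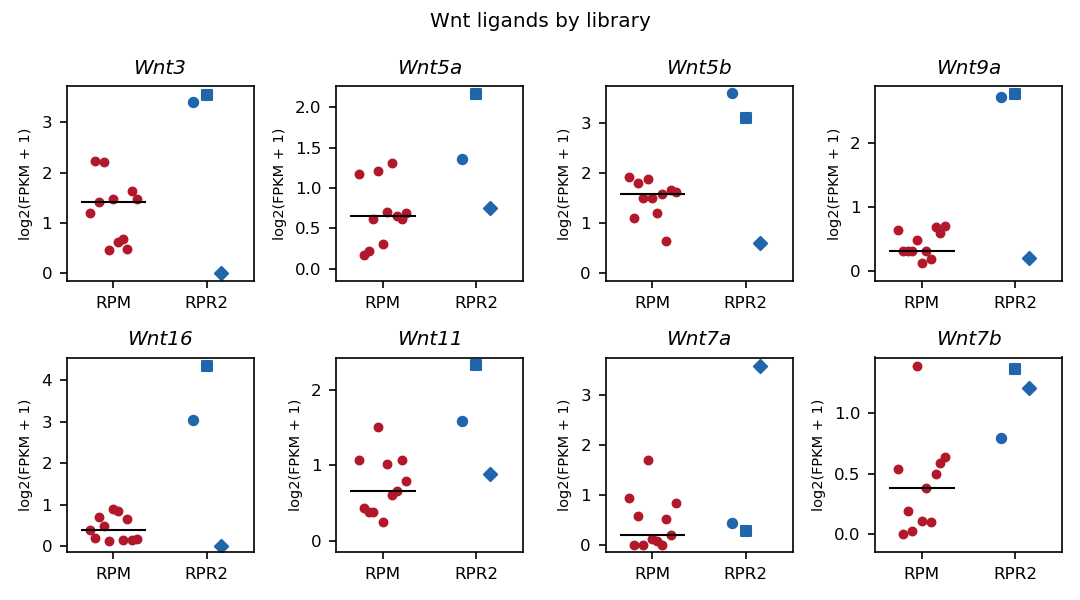
Levels of 8 Wnt ligands by library as log2(FPKM + 1) (y axis, a scale for each gene), with 11 RPM libraries at the left (red, black line at the median) and RPR2 at the right (blue circle, square and diamond for replicates 1, 2 and 3). Wnt3, Wnt5b, Wnt9a and Wnt16 are high in the circle and square and at or near the bottom in the diamond, and Wnt7a is high in the diamond alone.

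Many Wnt ligand genes sit beside another Wnt gene, and 4 such pairs were among the 44 genes (GENCODE, GRCm38). Wnt3a (chromosome 11, 59248033 to 59290752, minus strand) lies 16.2 kb from Wnt9a (59306928 to 59333552, plus strand), and Wnt9b (103727364 to 103749821, minus) lies 24.3 kb from Wnt3 (103774150 to 103817957, plus) on the same chromosome. In RPR2 replicates 1 and 2, where Wnt9a and Wnt3 were at 5.59 to 10.7 FPKM, Wnt3a was at 0.36 and 0.26 and Wnt9b at 0.02 and 0.06 FPKM. Wnt10b and Wnt1 on chromosome 15 are 11.7 kb apart, with Wnt1 at 0.04 FPKM or below in every library and Wnt10b at up to 1.39. Wnt6 and Wnt10a on chromosome 1 are 6.2 kb apart, and neither passed 0.38 FPKM. In the pairs that hold Wnt9a and Wnt3, the level of 1 partner was therefore high without that of the other.

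The promoter windows of Wnt9a, Wnt3, Wnt5b, Fzd9 and Fzd5 are shown. These genes carry the pattern of RPR2 replicates 1 and 2 or differed in every RPM library, and a window was at hand for them. The choice is not complete, since Wnt11 and Wnt16 carry that pattern too and had windows that are not printed. Each window runs from 250 bases before to 50 bases after a start that RefSeq gives for the gene (GRCm38.p6), 5′ to 3′ on the gene's strand. Capitals mark the E-box CACGTG, a sequence that Myc with Max can bind, and CTTTGNT, a core of sites of Tcf and Lef factors. Both were searched on both strands, CACGTG is its own reverse complement, and CTTTGNT on the other strand reads ANCAAAG.
Wnt9a, chr11:59306680-59306979, plus strand: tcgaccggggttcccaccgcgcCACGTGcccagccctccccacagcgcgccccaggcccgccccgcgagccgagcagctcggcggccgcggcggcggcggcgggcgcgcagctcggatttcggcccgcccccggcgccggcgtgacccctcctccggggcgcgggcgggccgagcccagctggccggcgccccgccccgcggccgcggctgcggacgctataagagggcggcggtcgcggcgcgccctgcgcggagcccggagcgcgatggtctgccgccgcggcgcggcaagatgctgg
Wnt3, chr11:103773925-103774224, plus strand: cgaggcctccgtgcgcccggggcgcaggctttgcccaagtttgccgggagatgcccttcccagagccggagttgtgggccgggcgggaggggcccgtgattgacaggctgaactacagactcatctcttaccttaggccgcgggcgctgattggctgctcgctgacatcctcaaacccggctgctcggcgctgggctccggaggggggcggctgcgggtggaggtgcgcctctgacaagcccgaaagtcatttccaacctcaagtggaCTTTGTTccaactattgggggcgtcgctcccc
Wnt5b, chr6:119449337-119449636, minus strand: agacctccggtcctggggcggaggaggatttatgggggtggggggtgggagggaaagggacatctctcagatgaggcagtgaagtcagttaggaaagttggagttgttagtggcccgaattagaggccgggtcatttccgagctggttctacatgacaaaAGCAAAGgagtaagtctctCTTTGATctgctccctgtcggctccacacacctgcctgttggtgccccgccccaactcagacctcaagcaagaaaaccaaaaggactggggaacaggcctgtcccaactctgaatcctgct
Fzd9, chr5:135250998-135251297, minus strand: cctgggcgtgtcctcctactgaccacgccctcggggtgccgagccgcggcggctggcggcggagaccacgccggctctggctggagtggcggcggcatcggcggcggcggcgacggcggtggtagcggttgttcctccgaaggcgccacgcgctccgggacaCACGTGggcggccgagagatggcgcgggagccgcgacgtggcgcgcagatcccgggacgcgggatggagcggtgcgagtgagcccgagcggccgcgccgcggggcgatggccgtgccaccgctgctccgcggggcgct
Fzd5, chr1:64737701-64738000, minus strand: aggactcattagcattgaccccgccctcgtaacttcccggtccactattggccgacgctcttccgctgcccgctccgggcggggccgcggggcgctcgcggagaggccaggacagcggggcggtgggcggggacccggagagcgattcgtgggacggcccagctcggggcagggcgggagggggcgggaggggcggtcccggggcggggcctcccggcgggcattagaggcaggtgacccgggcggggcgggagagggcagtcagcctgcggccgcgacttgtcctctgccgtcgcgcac

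Windows were found for 29 of the 44 genes, 32 windows in all. CACGTG stood in 2 of them, Fzd9 and Wnt9a, and in 7.15% of all 32851 mouse windows. Fzd9 was higher in RPM in every library, whereas Wnt9a was high in RPR2 replicates 1 and 2. CTTTGNT stood in the windows of 7 genes (Wnt1, Wnt3, Wnt5b, Wnt9b, Wnt11, Fzd7 and Dkk1) and in 18.6% of all windows. Wnt5b has 3 windows in the table. The one printed belongs to a start inside the gene and holds the motif at 2 places, while the other windows, that at the outermost start included, hold none. The window of Fzd5 holds neither motif, and nor does that of Wnt16, which is not printed. A match describes the letters of the window and does not show that a factor binds there.

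Of 9 Frizzled genes tested, Fzd9 was higher in RPM, Fzd5, Fzd6 and Fzd1 were lower, and 5 were not called. Over all tested genes, 18.4% were higher and 22.8% lower. The 10 Frizzled genes summed to 9.11 to 66.5 FPKM in RPM (median 20.4), against 24.1, 31.4 and 74.6 FPKM in RPR2, so the sums overlapped. In RPM, Fzd9 was the highest Frizzled in 4 libraries, Fzd2 in 3, Fzd1 in 2, Fzd3 in 1 and Fzd7 in 1. In RPR2 it was Fzd6 in replicates 1 and 2 and Fzd7 in replicate 3.

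Fzd9 (ENSMUSG00000049551, chromosome 5, 135248938 to 135251230, minus strand) is a receptor known from neural precursors and bone. It was at 1.74 to 13.98 FPKM in RPM (median 3.11), against 0.51, 0.02 and 0 FPKM in RPR2. All 11 RPM libraries lay above all 3 RPR2 libraries. Fzd9 rose by 2.13 ± 0.44 on the log2 scale (SE, n = 11 and 3; limma, BH-adjusted p = 0.00138), and by 2.03 ± 0.53 without RPR2 replicate 3 (adjusted p = 0.00654).

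Fzd5 (ENSMUSG00000045005, chromosome 1, 64730558 to 64737751, minus strand), a receptor of epithelia such as the gut lining, was at 0.08 to 1.35 FPKM in RPM (median 0.49), against 3.42, 3.27 and 3.63 FPKM in RPR2. The RPR2 libraries were close to each other, replicate 3 included, and all lay above every RPM library. Fzd5 fell by 1.55 ± 0.21 on the log2 scale (SE; limma, BH-adjusted p = 4.77e-05), which was the smallest p among the 26 genes.

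Fzd6, a receptor known for hair and planar polarity, was at 1.0 to 12.1 FPKM in RPM (median 1.77), against 6.04, 11.5 and 9.55 FPKM in RPR2. The groups overlapped through RPM replicate 5 alone, which was the highest of all 14 libraries, where the next RPM value was 4.47. Fzd6 fell by 1.51 ± 0.46 on the log2 scale (SE; limma, BH-adjusted p = 0.0154, and 0.0796 without RPR2 replicate 2). Fzd1 was at 0.78 to 5.40 FPKM in RPM (median 2.78), against 3.55, 5.49 and 11.45 FPKM in RPR2. RPR2 replicate 3 was its highest library, and replicate 1 lay within the RPM range. Fzd1 fell by 1.09 ± 0.38 on the log2 scale (SE; limma, BH-adjusted p = 0.0342), and the call was lost without RPR2 replicate 3 (difference -0.69, limma, BH-adjusted p = 0.193), RPR2 replicate 2 (0.0746) or RPM replicate 8 (0.0502).

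Fzd7 and Fzd2 belong to the same Frizzled subgroup as Fzd1 and differed between the RPR2 libraries. Fzd7 was at 0.26 to 13.8 FPKM in RPM (median 1.2), against 1.99, 2.29 and 40.6 FPKM in RPR2. Fzd2 was at 0.54 to 12.1 FPKM in RPM (median 3.52), against 0.45, 0.58 and 6.27 FPKM in RPR2. For both, RPR2 replicate 3 stood well above RPR2 replicates 1 and 2, and RPM replicate 5 was the highest RPM library. Neither was called (difference -1.31 ± 0.74 for Fzd7 and 0.89 ± 0.57 for Fzd2, SE; limma, BH-adjusted p = 0.173 and 0.231). Without RPR2 replicate 3 Fzd2 was higher in RPM by 1.64 ± 0.58 log2 units (SE; limma, BH-adjusted p = 0.0323), while the Fzd7 difference was -0.07 ± 0.65. Fzd3, Fzd4 and Fzd8 were at 0.33 to 6.40 FPKM in RPM, against 0.11 to 3.23 FPKM in RPR2, and were not called. For Fzd3 the lowest value of the 14, 0.11 FPKM, was RPR2 replicate 3, and its difference was 0.51 ± 0.41 with that library and -0.13 ± 0.38 without it (SE; limma, BH-adjusted p = 0.341 and 0.8).

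**Figure D4:**
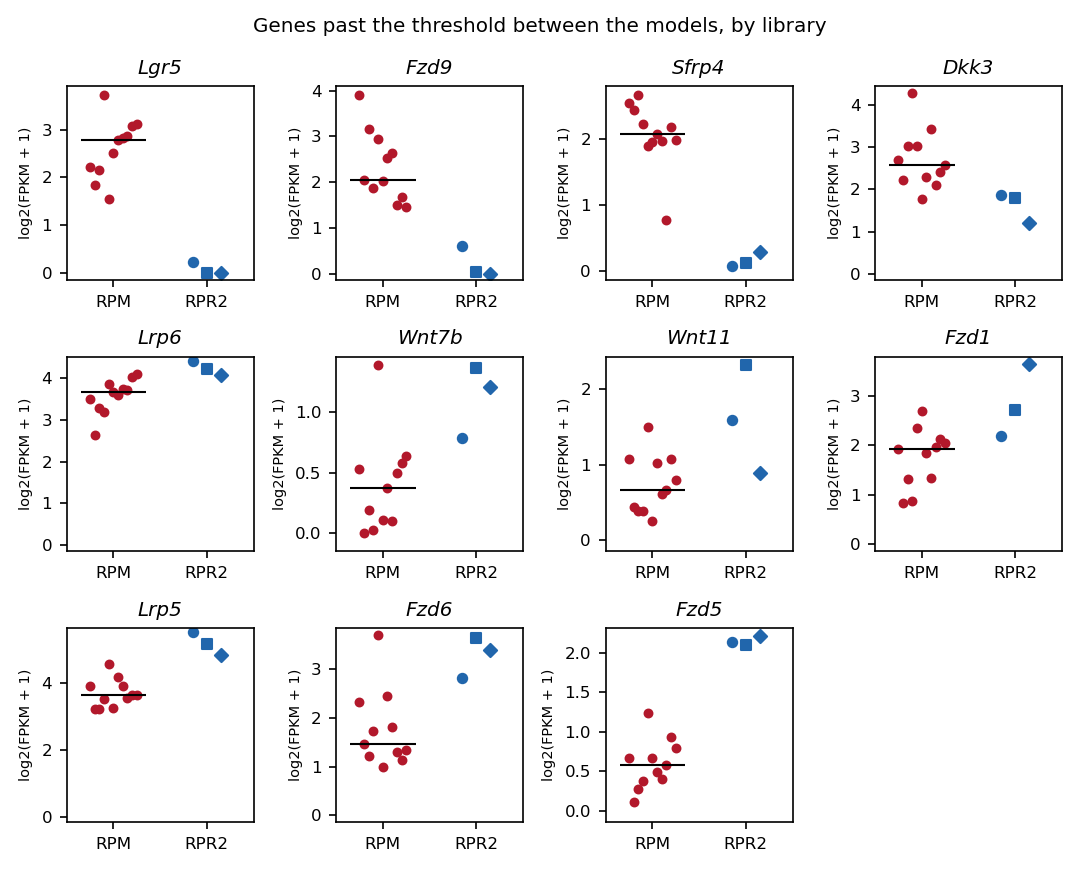
Levels of the 11 genes past the threshold by library as log2(FPKM + 1) (y axis, a scale for each gene), with RPM at the left (red, black line at the median) and RPR2 at the right (blue circle, square and diamond for replicates 1, 2 and 3). The groups are apart for Lgr5, Fzd9, Sfrp4, Lrp5 and Fzd5 and overlap for the other 6 genes.

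Lrp5 and Lrp6, the co-receptors of the beta-catenin branch, were among the most abundant of the 44 genes, and both were lower in RPM. Lrp5 (ENSMUSG00000024913, chromosome 19, 3584828 to 3686564, minus strand) was at 8.32 to 22.5 FPKM in RPM (median 11.3), against 44.8, 34.9 and 27.6 FPKM in RPR2. All RPM libraries lay below all RPR2 libraries. Lrp5 fell by 1.49 ± 0.26 on the log2 scale (SE, n = 11 and 3; limma, BH-adjusted p = 0.000379), and the difference was -1.65 without RPR2 replicate 3.

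Lrp6 was at 5.18 to 16.2 FPKM in RPM (median 11.6), against 20.3, 17.7 and 15.7 FPKM in RPR2. RPR2 replicate 3 lay below RPM replicate 11, the highest RPM library, and the other RPR2 libraries lay above all RPM. Lrp6 fell by 0.66 ± 0.25 on the log2 scale (SE; limma, BH-adjusted p = 0.0471). Leaving out any of RPM replicates 1, 3, 4, 6, 7, 8 and 9 (limma, BH-adjusted p of 0.0533 to 0.0674), or RPR2 replicate 1, 2 or 3 (0.164, 0.117 and 0.0541), ended the call.

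Lgr5 (ENSMUSG00000020140, chromosome 10, 115450311 to 115587780, minus strand), an R-spondin receptor and a stem cell marker of the gut, was at 1.94 to 12.2 FPKM in RPM (median 5.86), against 0.18, 0 and 0.01 FPKM in RPR2. Every RPM tumour was above 1 FPKM and every RPR2 tumour was below 0.2 FPKM. Lgr5 rose by 2.52 ± 0.36 on the log2 scale (SE, n = 11 and 3; limma, BH-adjusted p = 7.22e-05), the largest rise among the 26 genes, and by 2.48 ± 0.43 without RPR2 replicate 3. Lgr4, its paralog, was at 2.19 to 9.90 FPKM in RPM (median 3.79), against 8.76, 10.5 and 0.42 FPKM in RPR2. RPR2 replicate 3 was the lowest of the 14 libraries and RPR2 replicate 2 the highest. Lgr4 was not called with all libraries (-0.01 ± 0.50, SE; limma, BH-adjusted p = 0.990) and was lower in RPM without RPR2 replicate 3 (-0.98 ± 0.35, SE; limma, BH-adjusted p = 0.0360). Lgr6 reached 1.07 FPKM in RPM replicate 5 and stayed at 0.71 or below elsewhere.

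The R-spondin genes, whose products bind these receptors, came from a list of other pathway genes. Rspo4 was at 0.02 to 1.27 FPKM in RPM (median 0.11), against 59.8, 13.1 and 0.08 FPKM in RPR2. Rspo1 was at 0.03 to 4.27 FPKM in RPM (median 0.60), against 9.07, 3.18 and 0.22 FPKM in RPR2. Like Wnt3, Wnt5b, Wnt9a and Wnt16, and unlike Wnt7a, both were lower in RPR2 replicate 3 than in RPR2 replicates 1 and 2. Rspo4 fell by 2.99 ± 0.73 on the log2 scale (SE; limma, BH-adjusted p = 0.00461), and its difference was -4.58 without RPR2 replicate 3 (1.21e-06) and -1.67 without RPR2 replicate 1 (0.045). Rspo1 was not called (limma, BH-adjusted p = 0.105) but passed without RPM replicate 5 (0.0403) or RPR2 replicate 3 (0.0067). Rspo2 and Rspo3 stayed at 1.76 FPKM or below and were not tested.

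Of 4 secreted Frizzled-related genes tested, whose products bind Wnts outside the cell, Sfrp4 was higher in RPM and none was lower. Over all tested genes, 18.4% were higher and 22.8% lower. Sfrp4 (ENSMUSG00000021319, chromosome 13, 19623104 to 19632994, plus strand) was at 0.71 to 5.38 FPKM in RPM (median 3.23), against 0.05, 0.08 and 0.21 FPKM in RPR2. All RPM libraries lay above all RPR2 libraries, and the lowest RPM value was replicate 9. Sfrp4 rose by 1.91 ± 0.30 on the log2 scale (SE, n = 11 and 3; limma, BH-adjusted p = 0.000154).

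Sfrp2 was at 0.24 to 40.2 FPKM in RPM (median 3.61), against 0.36, 0.48 and 0 FPKM in RPR2. RPM replicates 1, 5, 7 and 8 were at 12.7 FPKM or more, whereas RPM replicate 2 lay below RPR2 replicates 1 and 2. The difference was 2.18 ± 0.96 log2 units and was not called (SE; limma, BH-adjusted p = 0.0819). Sfrp5 was at 1.02 to 23.4 FPKM in RPM (median 5.89), against 11.2, 12.9 and 0.12 FPKM in RPR2, and was not called (0.23 ± 0.80, SE; limma, BH-adjusted p = 0.844), and without RPR2 replicate 3 the difference was -0.95 ± 0.77 (0.33). Sfrp1 was at 0.34 to 2.51 FPKM in RPM, against 1.02, 0.66 and 0.58 FPKM in RPR2, and Frzb was at 0.73 FPKM or below throughout.

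Dkk3, a Dickkopf relative that is not known to bind Lrp5 or Lrp6, was at 2.43 to 18.5 FPKM in RPM (median 4.91), against 2.64, 2.49 and 1.29 FPKM in RPR2. RPM replicate 4 was the highest, and RPM replicate 6 lay within the RPR2 range. Dkk3 rose by 1.09 ± 0.41 on the log2 scale (SE; limma, BH-adjusted p = 0.0433). The call was lost without RPM replicate 1, 3, 5, 8 or 11 (limma, BH-adjusted p of 0.0526 to 0.0614) or any RPR2 replicate (0.0717, 0.0843 and 0.15). Among the Lrp antagonists, Dkk2 was at 13.9 FPKM and Dkk1 at 1.08 FPKM in RPM replicate 5. Elsewhere Dkk2 was at 0.31 to 1.15 FPKM and Dkk1 at 0.05 or below.

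Markers of other cells differed between the models too, where 18.4% of all tested genes were higher in RPM and 22.8% lower. Of 6 smooth muscle and pericyte markers 4 were higher in RPM and none lower, with sums of 136 to 278 FPKM in RPM, against 39.3, 34.2 and 47.1 FPKM in RPR2. Of 8 fibroblast markers 4 were higher and 2 lower, with sums of 181 to 422 FPKM in RPM, against 283, 179 and 127 FPKM in RPR2. The 6 alveolar type 2 markers were all lower in RPM (147 to 1390 FPKM, against 1810, 2310 and 50100 FPKM in RPR2), as were 3 of 5 alveolar type 1 markers (12.3 to 199 FPKM, against 159, 228 and 703 FPKM in RPR2). Of 6 endothelial markers 2 were lower in RPM. Vwf made up most of their sum in RPR2, at 1.02 to 14.3 FPKM in RPM, against 238, 329 and 28.3 FPKM in RPR2, while the other endothelial markers summed to 14.9 to 60.8 FPKM in RPM, against 60.1, 48.8 and 21.8 FPKM in RPR2. Of 4 club and airway secretory markers 3 were lower, with sums of 0.99 to 1630 FPKM in RPM, against 3530, 25800 and 959 FPKM in RPR2. The neuroendocrine markers (1 of 9 higher and 1 lower) summed to 227 to 1270 FPKM in RPM, against 2320, 3440 and 12.4 FPKM in RPR2. For the club, endothelial and neuroendocrine sums, RPR2 replicates 1 and 2 lay above every RPM library and replicate 3 did not. The endothelial sums, Vwf included, were 18.2 to 66.2 FPKM in RPM, against 298, 378 and 50.1 FPKM in RPR2. Wnt3, Wnt5b, Wnt9a and Wnt16 had that pattern too, as did 15.9% of all tested genes. No gene of these lists was listed at 0 throughout either group. Their part in the results was not tested.

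Axin2, a target of beta-catenin in most tissues, was at 1.65 to 5.10 FPKM in RPM (median 2.65), against 4.68, 6.95 and 0.41 FPKM in RPR2. RPR2 replicate 2 was the highest and replicate 3 the lowest of the 14 libraries. Axin2 was not called with all libraries (-0.04 ± 0.39, SE; limma, BH-adjusted p = 0.945). Without RPR2 replicate 3 it fell in RPM by 0.79 ± 0.28 on the log2 scale (SE; limma, BH-adjusted p = 0.0343). RPR2 replicate 3 was the lowest library for 9 of the 26 tested genes (34.6%, against 29.0% of all tested genes) and the highest for Fzd1, Fzd5 and Fzd7 (11.5%, against 14.8%).

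The other genes of the pathway were taken from a list of 83, of which 68 were tested. In RPM 9 were higher and 14 lower, that is 13.2% and 20.6%, against 18.4% and 22.8% of all tested genes, with a median difference of -0.24. Without RPR2 replicate 3, 7 were higher and 20 lower (10.3% and 29.4% of the 68, against 16.2% and 28.5% of all tested genes). That fit gained Ptk7 and Pygo1 as higher and Btrc, Ephb2, Frat1, Prickle2, Ror2, Rspo1, Shisa2 and Tnfrsf11b as lower. It lost Apcdd1, Ctnnbip1, Nkd2 and Ryk as higher and Gpc4 and Nkd1 as lower. Gpc3 stayed higher, with a difference of 1.59 with all libraries and 2.50 in that fit. Without RPR2 replicate 2, 5 were higher and 10 lower (7.35% and 14.7%, against 14.7% and 16.8%). Of the 23 genes called with all libraries, 12 stayed called whichever library was left out. They were Apc2, Csnk1e, Prickle1 and Tnfrsf19, which were higher in RPM, and Wls, Rspo4, Vangl1, Tcf7l1, Tle1, Tle2, Bambi and Cd44, which were lower. The other 11 lost the call without at least 1 library: Apcdd1, Nkd2, Ctnnbip1, Gpc3 and Ryk, higher in RPM, and Nkd1, Ctnnb1, Gpc4, Pygo2, Tle4 and Ephb3, lower.

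Wls, which carries Wnts to the surface, was at 2.82 to 30.2 FPKM in RPM (median 9.43), against 63.3, 68.8 and 106 FPKM in RPR2, with no overlap. It fell by 2.97 ± 0.59 on the log2 scale (SE; limma, BH-adjusted p = 0.00103). Porcn, the acyltransferase of Wnts, was at 3.99 to 6.72 FPKM in RPM, against 4.26, 6.53 and 11.8 FPKM in RPR2, and passed only when RPR2 replicate 1 was the library left out (limma, BH-adjusted p = 0.184 with all libraries and 0.0357 without it). Of the planar polarity genes, Vangl1 was at 0.58 to 3.83 FPKM in RPM, against 21.0, 20.7 and 3.58 FPKM in RPR2, replicate 3 lying within the RPM range, and its difference was -2.0 with that library and -2.75 without it. Prickle1 was at 3.26 to 11.5 FPKM in RPM, against 1.97, 2.40 and 0.23 FPKM in RPR2. Its difference was 1.455 with RPR2 replicate 3 and 0.998 without it. Vangl1 and Prickle1, of 1 process, thus differed in opposite directions. Vangl2, Prickle2 and Celsr1 to Celsr3 were not called with all libraries (limma, BH-adjusted p of 0.0634 to 0.330). Without RPR2 replicate 3, Prickle2 was lower in RPM like Vangl1 (difference -2.18, limma, BH-adjusted p = 1.32e-05).

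In the cytoplasm 3 of 23 tested genes were higher and 2 lower, against 18.4% and 22.8% of all tested genes. Apc2, a neural relative of Apc, was at 2.05 to 21.4 FPKM in RPM (median 7.82), against 0.41, 0.50 and 0.30 FPKM in RPR2. It rose by 2.63 ± 0.49 on the log2 scale (SE; limma, BH-adjusted p = 0.000597). The casein kinase gene Csnk1e was at 77.6 to 155 FPKM in RPM, against 61.6, 57.6 and 30.8 FPKM in RPR2. Ctnnb1, which encodes beta-catenin, was at 81.7 to 270 FPKM in RPM (median 174), against 317, 301 and 216 FPKM in RPR2. It fell by 0.80 ± 0.27 on the log2 scale (SE; limma, BH-adjusted p = 0.0268, and 0.112 and 0.103 without RPR2 replicate 1 or 2). Nkd1, a feedback inhibitor, was at 1.38 to 7.05 FPKM in RPM, against 7.39, 3.59 and 53.45 FPKM in RPR2, and was no longer called without replicate 3 (limma, BH-adjusted p = 0.140).

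Among 13 nuclear genes tested, 5 were lower and 1 was higher in RPM, where 22.8% of all tested genes were lower and 18.4% higher. The Groucho corepressors Tle1, Tle2 and Tle4 were among the lower ones, and the difference of Tle2 was -1.75 with all libraries and -1.10 without RPR2 replicate 3. Tle1 was at 8.61 to 17.7 FPKM in RPM, against 40.4, 42.3 and 25.0 FPKM in RPR2, and fell by 1.35 ± 0.20 on the log2 scale (SE; limma, BH-adjusted p = 0.000105). Tcf7l1, a Tcf factor known mainly as a repressor, was at 0.96 to 6.74 FPKM in RPM, against 7.38, 5.72 and 20.9 FPKM in RPR2. Lef1 stayed at 0.96 FPKM or below in all libraries. Of 9 genes known as Wnt targets in other tissues, Tnfrsf19 was higher and Bambi, Cd44 and Ephb3 were lower, beside those same shares. Tnfrsf19, which like Lgr5 marks gut stem cells, was at 2.41 to 22.9 FPKM in RPM (median 6.92), against 0.74, 0.50 and 0.05 FPKM in RPR2. Bambi, a pseudoreceptor of the TGF-beta family, was at 1.44 to 4.80 FPKM in RPM, against 10.8, 17.2 and 11.4 FPKM in RPR2.

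Targets below the filter were chosen here after their values were seen. Notum, which removes the lipid of Wnts, was at 0 to 0.59 FPKM in RPM, against 5.54, 24.4 and 0.66 FPKM in RPR2. Sp5 was at 0 to 0.05 FPKM in RPM, against 0.13, 0.11 and 6.07 FPKM in RPR2, and the ligase gene Rnf43 at 0 to 0.57 FPKM in RPM, against 0.65, 1.48 and 5.13 FPKM in RPR2. Notum was thus high in RPR2 replicates 1 and 2, and Sp5 and Rnf43 were highest in replicate 3. None of the 3 genes passed 0.59 FPKM in RPM. Ascl2, also a target below the filter, was low in both models, at 0 to 0.18 FPKM in RPM, against 0.06, 0.03 and 0 FPKM in RPR2.

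**Figure D5:**
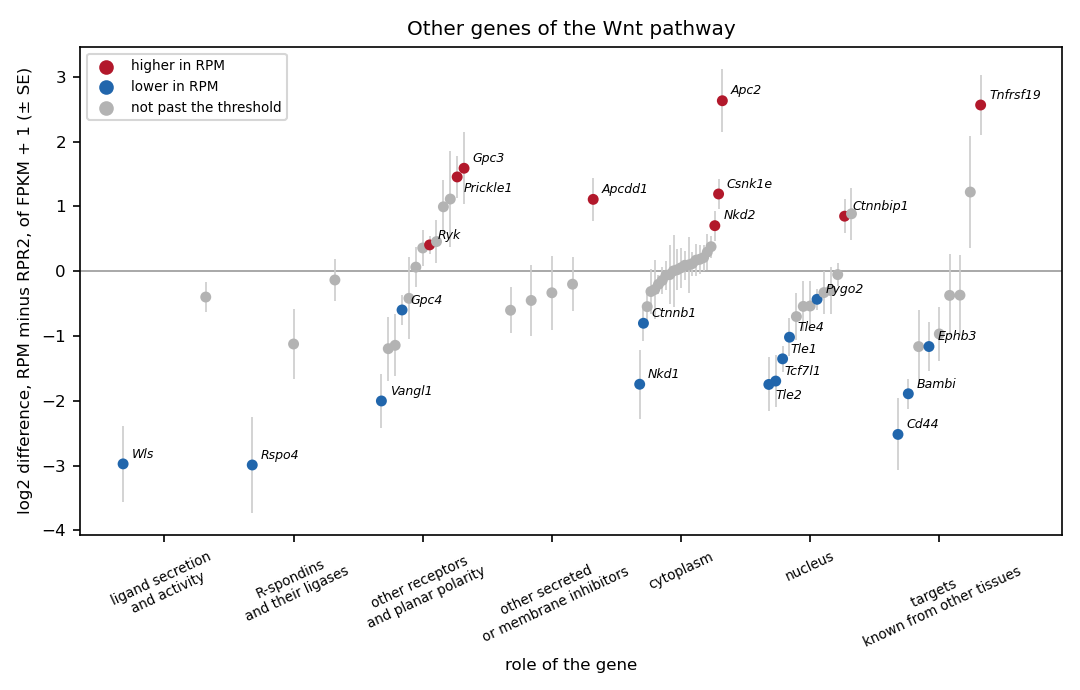
Log2 difference of FPKM + 1, RPM minus RPR2, with its SE (y axis) for the 68 other pathway genes tested, by role (x axis). Red genes (9) were higher and blue genes (14) lower in RPM at an adjusted p under 0.05, and Rspo4 and Wls lie lowest.

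Within RPM the 2 numbers of Myc alleles were compared. None of the 22 genes tested passed (limma, BH-adjusted p of at least 0.231; 4 had an unadjusted p under 0.05, as did 17.3% of all genes tested), where 1 of 14862 genes was called (0.00673%). Wnt3 was at 0.38 to 2.11 FPKM in LSL/LSL (median 1.29, n = 9), against 3.71 and 3.63 FPKM in LSL/+. Fzd1 was at 1.5 to 5.40 FPKM in LSL/LSL (median 2.90), against 0.78 and 0.82 FPKM in LSL/+, and Lrp6 at 8.81 to 16.2 FPKM (median 12.2), against 5.18 and 8.09 FPKM. Every LSL/LSL library lay above both LSL/+ libraries for Fzd1 and Lrp6 (9.09% of the 22, against 6.68% of all genes tested) and below them for Wnt3 (4.55% against 2.68%), and the BH-adjusted p by limma was 0.231 to 0.233. The LSL/+ tumour RPM replicate 2 was also the lowest RPM library for 13 of the 26 genes, where it was so for 31.0% of all genes tested between the models.

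Among RPM tumours replicate 5 stood out. It was the highest RPM library for 10 of the 26 tested genes (38.5%, against 15.9% of all tested genes): Wnt7b, Wnt11, Fzd2, Fzd3, Fzd4, Fzd5, Fzd6, Fzd7, Lrp5 and Dkk2. It also held the highest RPM values of Wnt7a, Fzd10 (3.83 FPKM, where no other library passed 0.58), Lgr6 and Dkk1. The same library had the lowest neuroendocrine marker sum in RPM and the highest club cell (1630 FPKM, next 1450) and endothelial (66.2 FPKM, next 62.2) sums. Their part in its Wnt values was not tested. With RPM replicate 5 and RPR2 replicate 3 both left out, 4 of the 26 genes were higher in RPM (Fzd2, Fzd9, Lgr5 and Sfrp4) and 10 lower, where 16.8% and 29.3% of all tested genes were, or 46.1% in either direction.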

How the data were processed

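FPKM values for each gene and library were deposited by the authors in 1 table of 46517 genes and 1 reporter row, listed at 0 throughout and left out. RSEM 1.2.12, Bowtie 1.0.1 and mm10 are named in the submitters' processing notes, with no settings, and no source used here gives the annotation or strand setting. Identifiers were matched to GENCODE M21 (46005 had a symbol), on GRCm38, the assembly of mm10. Columns were matched to samples by title, and genotype labels gave the groups. Depth was estimated from single-read steps in short genes. Genes with at least 1 FPKM in at least 3 libraries were tested on log2(FPKM + 1), which understates the change of low genes, with limma 3.58.1 in R 4.3.3 (trended empirical Bayes; p adjusted by Benjamini-Hochberg at 0.05) and tested on simulated data first. Other pseudocounts, scalings, filters, weights and left-out libraries were tried. Members and lists were chosen with earlier results of these data known. Per-library values are given for genes past the threshold and the 10 with the highest mean. Of the other pathway genes, up to 4 per role with the smallest p are named, with others named to account for a count.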

Additional observations from a re-analysis of the deposited data

Results flagged for a closer look

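In the 9 LSL/LSL tumours, 3 of the 26 tested genes had 1 library far from the others on log2(FPKM + 1). Dkk2 was at 13.86 FPKM in RPM replicate 5, where the next highest library was at 1.15 (Dixon's ratio 0.796, above its 95% critical value, as were the others). Wnt7b was at 1.62 FPKM in RPM replicate 5, where the next was at 0.56 (ratio 0.579). Sfrp4 was at 0.71 FPKM in RPM replicate 9, where the next lowest was at 2.71 (ratio 0.588). RPM replicate 9 is also the only RPM library with a code prefix of its own, whose part was not tested. Chance alone flags about 1 in 20 genes.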

How the results depend on the processing

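No paired analysis was possible because the labels give no replicate numbers, and the numbers used here only name samples. Fzd5, Lgr5, Sfrp4, Lrp5 and Fzd9 were called in all 24 alternatives, and no called gene of the 26 changed sign in any. Of 624 recomputed differences, 52 lost and 27 gained a call. The count of 7 lower genes became 4 and 3 with pseudocounts of 0.1 and 0.01, 4 after quantile normalization, 14 with array weights, 9 with no filter (43 genes tested, Wnt1, Wnt9a, Wnt10b and Wnt16 added) and 9 with TPM scaling (29 tested, Wnt5a, Wnt9a and Wnt16 added), and 2 to 9 with 1 library left out; the count of 4 higher genes became 3 to 4 there. TPM scaling moved the median of all genes from -0.06 to -0.24. It left 1900 genes higher and 3839 lower (2897 and 3586 as deposited), and 5 other pathway genes higher. Median-of-ratios scaling turned the balance (3363 higher, 3229 lower; median 0.05), as did quantile normalization (3657 and 3066; median 0.08). Array weights gave 6577 of 15719 genes lower, and 14 other pathway genes higher and 27 lower. With no filter 4862 of 30808 genes were lower, and pseudocounts of 0.1 and 0.01 gave 3360 and 3259 lower of 15719. Leaving out RPM replicate 5 and RPR2 replicate 3 together, chosen after seeing the data, gave 22 of the 68 other pathway genes tested lower. With 1 library left out, 2306 to 3029 genes were higher and 2633 to 4483 lower, and 5 to 10 other pathway genes higher and 10 to 20 lower. Between the Myc allele numbers, pseudocounts of 0.1 and 0.01 called 4 and 9 genes higher, no filter called 30 lower, TPM scaling, quantile normalization, averaging of titles that share a number and array weights called 0 lower, and leaving out 1 library called 0 to 6 higher and 0 to 2 lower. The cause of these shifts was not tested. Genes near or below 0.1 FPKM rest on a few reads. Differences between such levels, the Wnt1 call with no filter included, could therefore not be read at this depth.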
